A study of Mus musculus with 6 samples.

Results

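The cathepsins are the main proteases of the lysosome and the endosome. The 10 members described here are the genes Ctsa, Ctsb, Ctsc, Ctsd, Ctse, Ctsh, Ctsk, Ctsl, Ctss and Ctsz, found by the annotated symbol of the probe, out of 16593 genes that were measured. They were represented by 16 probes, and each of the 10 was detected on at least 4 of the 6 arrays. RNA from the tissues of adult female C57Bl6 mice was hybridised to Illumina MouseRef-8 v2.0 arrays. The left sciatic nerve was transected and taken at day 1 or at day 5, with the proximal and distal segments pooled, against a control nerve of the right side. L4/5 dorsal root ganglia (DRG) of the injured side at day 5 were set against control DRG, and spinal cord of the injured side was taken at day 5. The array labels call the control nerve and DRG normal, the study's text calls them sham-operated, and they are called sham here. For the day 5 nerve array the title carries codes of both times, and the time follows its source name.

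Each condition was 1 array of RNA pooled from 6 animals, so no test between conditions was possible and no p-value is given. Intervals are 95% intervals from the beads that carry a probe on an array, and they cover the technical error within that array only, not the spread between animals. Signals were scaled to a common median. The floor of an array is its lowest detected signal, 117 to 124 units, and a signal that was not detected was raised to it when a fold was taken. A gene was called higher or lower where the brighter array detected it and the signals differed at least 2-fold, and a fold against an array without detection is a lower bound. Background was not subtracted, so folds of signals near the floor are drawn toward 1.

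Most cathepsins are cysteine proteases made as inactive precursors, sorted to the lysosome by mannose 6-phosphate receptors and activated there by acid pH and by other proteases. Ctsd and Ctse are aspartic proteases and Ctsa is a serine carboxypeptidase. Macrophages are rich in these enzymes and use them to break down engulfed material, and in a transected nerve macrophages take up myelin and axon debris. Some cathepsins also act on proteins outside the cell, on the precursors of granule proteases, and on the invariant chain that blocks the groove of class II molecules.

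Cell type markers moved with the same arrays. Of 21 measured macrophage markers, 19 were detected in sham nerve, 20 at day 1 and 20 at day 5, and their summed signal was 24345 in sham nerve, 87760 at day 1 and 161861 at day 5. The sum was 16867 in day 5 DRG, against 7914 in sham DRG, and 8097 in the cord, and Msr1 was not detected on any array. Of 14 neutrophil markers, 11 were detected at day 1, with a summed signal of 52030, against 3809 in sham nerve. In sham DRG 12 were detected, and the sum was 11881, against 10712 in day 5 nerve, 9027 in day 5 DRG and 5415 in the cord. Camp and Ngp were detected in the DRG and cord arrays but on no nerve array. Markers of spinal cord cells, which a nerve should lack, were detected for 9 of 12 genes at day 1, against 2 of 12 in sham nerve, and for 3 of 12 in day 5 DRG, against 9 of 12 in sham DRG. Their summed signal was 3731 at day 1, against 1306 in sham nerve, 1624 in day 5 DRG, against 5232 in sham DRG, and 50352 in the cord itself. Of 7 detected reference genes, 4 were at least 2-fold higher at day 1 than in sham nerve. All 9 measured sensory neuron markers were detected in both DRG arrays, and all 7 measured Schwann cell and myelin markers on every nerve array. The summed signal of the Schwann cell and myelin markers was 124141 in sham nerve, 110113 at day 1 and 59872 at day 5, and 5 of 7 were at least 2-fold lower at day 5 than in sham nerve. The part of these cells and of tissue carried between samples in the values below was not tested.

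**Figure D1:**
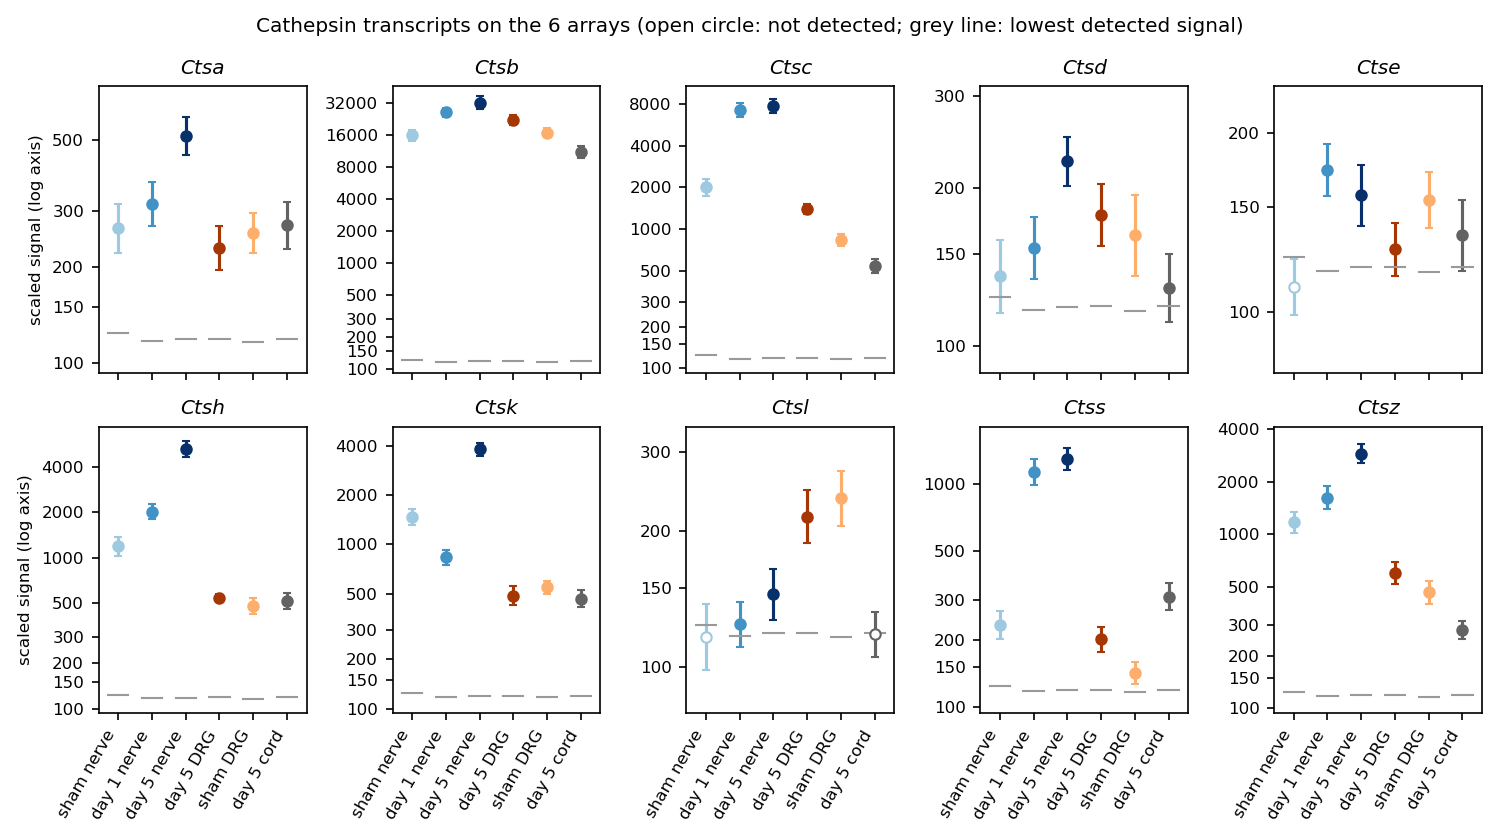
Scaled signal (log axis, each panel with its own range) of the 10 cathepsin genes on the 6 arrays, with 95% intervals from the beads, the lowest detected signal of each array as a grey line, and open circles where a gene was not detected. In 8 of the panels (Ctsa, Ctsb, Ctsc, Ctsd, Ctsh, Ctsk, Ctss and Ctsz) day 5 nerve is the highest array and its interval lies above that of sham nerve, while all values of Ctse in nerve, at most 173, and of Ctsl in nerve, at most 145, are close to the grey lines.

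In injured nerve, 2 of the 10 cathepsins were at least 2-fold higher at day 1 than in sham nerve, Ctsc and Ctss, and 0 were lower. Over all 10234 genes detected in this comparison, 6.54% were higher and 3.59% lower. At day 5, 6 of 10 were at least 2-fold higher than in sham nerve, namely Ctsb, Ctsc, Ctsh, Ctsk, Ctss and Ctsz, and 0 were lower, beside 6.30% higher and 5.09% lower among 10121 genes. The median log2 difference of the members was 0.48 at day 1 and 1.16 at day 5, against -0.01 and -0.02 over all genes. The detected reference genes had medians of 1.00 at day 1 and 0.46 at day 5. The member median was thus below theirs at day 1 and above it at day 5. Both comparisons use the same sham array. In these bulk samples a larger number of cells that express a gene and more RNA per cell cannot be told apart.

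Ctss encodes cathepsin S, a cysteine endopeptidase of macrophages and other antigen-presenting cells that stays active at neutral pH and trims the invariant chain. The gene lies at chr3:95526786-95556405 (GRCm38.p6). Its signal was 233 in sham nerve, 1126 at day 1 and 1291 at day 5, then 200 in day 5 DRG, against 142 in sham DRG, and 312 in day 5 cord. Both injured nerves stood well above the other arrays, and their own intervals overlapped. The fold over sham nerve was 4.83 (3.97 to 5.88) at day 1 and 5.54 (4.62 to 6.64) at day 5, and 1.26% of genes had as large a difference at day 1 and 0.682% at day 5. Sham nerve and day 5 DRG, which are next to each other in the order of levels, also had overlapping intervals. The sham nerve signal was 1.88 times the floor and the sham DRG signal only 1.22 times. With background subtracted by neqc the log2 differences from sham nerve were 2.71 at day 1 and 3.01 at day 5. They were 2.27 and 2.47 here, and the bead intervals do not cover the neqc values.

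Ctsc encodes dipeptidyl peptidase I, which removes dipeptides from the ends of granule serine proteases and so activates them in neutrophils, mast cells and cytotoxic lymphocytes. It lies at chr7:88278024-88315861. Its signal was 2010 in sham nerve, 7205 at day 1 and 7704 at day 5, then 1405 in day 5 DRG, against 839 in sham DRG, and 544 in day 5 cord. The fold over sham nerve was 3.58 (3.00 to 4.28) at day 1 and 3.83 (3.21 to 4.57) at day 5. Only the day 1 and day 5 nerves had overlapping intervals among neighbours in the order, and the highest array was 14.2 times the lowest. The other 2 probes of Ctsc gave log2 differences of 1.43 and 1.53 at day 1 and 1.48 and 1.68 at day 5, beside 1.84 and 1.94 for the probe used.

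Ctsc acts on the products of granule protease genes. Of 7 that were detected, 0 were at least 2-fold higher at day 1 and 2 were lower, the mast cell proteases Cma1 (260 at day 1, against 564 in sham nerve) and Tpsb2 (250 at day 1, against 505 in sham nerve). At day 5, 0 of 7 were higher or lower. Over all genes, 6.54% were higher and 3.59% lower at day 1, and 6.30% and 5.09% at day 5.

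The DNA before the starts of these genes is shown because Ctsc and Ctss were the members called at both times, and Ctsd because it holds the motif of a lysosomal gene regulator. RefSeq windows of 250 bases before a start were found for 7 of the 10 members, and not for Ctsb, Ctse and Ctsh. They were searched on both strands, with no motif containing another, for CACGTG (the core of the sites bound by TFEB and related factors), GAAA followed after 2 bases by GAAA (a form of the interferon-stimulated response element) and GAGGAAGT (a site type of the myeloid factor PU.1). CACGTG was present for Ctsa, Ctsd and Ctsl and in 6.02% of 32851 windows, the GAAA pair for Ctss and in 2.98%, and GAGGAAGT for Ctsc and in 2.44%. Capitals mark the motif in each 60-base stretch, written 5′ to 3′ on the strand of the gene (RefSeq, GRCm38.p6).
Ctss, chr3:95526726-95526785, plus strand: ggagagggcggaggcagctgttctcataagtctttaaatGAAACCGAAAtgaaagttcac
Ctsc, chr7:88277908-88277967, plus strand: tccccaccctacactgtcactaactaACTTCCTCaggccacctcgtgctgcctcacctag
Ctsd, chr7:142387893-142387952, minus strand: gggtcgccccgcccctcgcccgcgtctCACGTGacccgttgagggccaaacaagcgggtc
The Ctsc motif is on the opposite strand of the gene and so reads ACTTCCTC here. A match is a description of the letters and was not tested as a binding site.

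Ctsh, Ctsz and Ctsb are cysteine proteases with exopeptidase activity. Ctsh encodes cathepsin H, an aminopeptidase, at chr9:90054267-90076095. Its signal was 1189 in sham nerve, 2012 at day 1 and 5212 at day 5, then 543 in day 5 DRG, against 481 in sham DRG, and 515 in day 5 cord. The 3 nerve arrays were separate from each other, whereas the DRG and cord arrays had overlapping intervals. The fold over sham nerve was 1.69 (1.40 to 2.04) at day 1 and 4.38 (3.62 to 5.30) at day 5, and day 5 was 2.59-fold (2.19 to 3.06) over day 1.

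Ctsz encodes cathepsin Z, also called X, a carboxypeptidase of myeloid cells, at chr2:174427494-174439039. Its signal was 1169 in sham nerve, 1617 at day 1 and 2905 at day 5, then 597 in day 5 DRG, against 464 in sham DRG, and 281 in day 5 cord. Again the 3 nerve arrays stood apart from each other, and the 2 DRG arrays had overlapping intervals. The fold over sham nerve was 1.38 (1.13 to 1.70) at day 1 and 2.49 (2.05 to 3.01) at day 5. A second probe gave log2 differences of 0.79 at day 1 and 1.55 at day 5, beside 0.47 and 1.31 for the probe used.

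Ctsb encodes cathepsin B, both an endopeptidase and a dipeptide-releasing carboxypeptidase, at chr14:63122462-63145923. Its signal was 16056 in sham nerve, 26415 at day 1 and 32455 at day 5, then 22329 in day 5 DRG, against 16979 in sham DRG, and 11153 in day 5 cord. The range over the 6 arrays was small, 2.91-fold, and 3 of the pairs next to each other in order had overlapping intervals, day 5 and day 1 nerve among them. The fold over sham nerve was 1.65 (1.41 to 1.92) at day 1 and 2.02 (1.68 to 2.44) at day 5. The call at day 5 is at the threshold and was lost with quantile normalization, where the log2 difference was 0.91.

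Ctsk encodes cathepsin K, the collagen- and elastin-degrading protease of osteoclasts, also made by activated fibroblasts. It lies at chr3:95499210-95509387, 17398 bases from Ctss. Its signal was 1472 in sham nerve, 835 at day 1 and 3799 at day 5, then 489 in day 5 DRG, against 547 in sham DRG, and 466 in day 5 cord. It was the only member whose bead interval of the difference lay below 0 at day 1, with a log2 difference of -0.82 (-1.04 to -0.59), and at day 5 it was 2.58-fold (2.22 to 3.00) over sham nerve. Day 5 was 4.55-fold (3.95 to 5.23) over day 1, and 0.346% of genes had as large a difference. Ctsh and Ctsk were the 2 of 10 members at least 2-fold higher at day 5 than at day 1, with 0 lower, beside 3.25% higher and 4.65% lower among 10406 genes.

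Fibroblast markers were measured beside Ctsk. Of 13 detected genes of the fibroblast list, 0 were higher and 7 lower at day 1 than in sham nerve, and 1 was higher and 3 lower at day 5. The shares over all genes were 6.54% and 3.59% at day 1, and 6.30% and 5.09% at day 5. The 1 higher at day 5 was Thy1, with 8276, against 1323 in sham nerve. Thy1 gave 16200 in sham DRG and 14630 in day 5 cord, so it is not a marker of nerve fibroblasts alone. The 3 lower were Slc2a1, Cldn1 and Mfap5. At day 5 against day 1, 7 of 13 were higher and 1 lower, with a median log2 difference of 1.33. Their summed signal was 114285 in sham nerve, 68164 at day 1 and 89242 at day 5. The matrix proteins that cathepsins can cut included Col1a1, with 7673 in sham nerve, 3267 at day 1 and 14199 at day 5, and Eln, with 733 in sham nerve, 344 at day 1 and 1751 at day 5. Of 14 detected genes of the matrix list, 1 was higher and 4 lower at day 1, and 4 were higher and 0 lower at day 5. The list also holds Tgfb1 and Cx3cl1, which encode signalling proteins. The 4 at day 5 were Bgn, Eln, Tnc and Tgfb1, and Col1a1 was not among them. At day 5 against day 1, 7 of these 14 genes were higher and 0 lower. Col1a1, Col1a2 and Dcn are in both the fibroblast and the matrix list. Tnc, encoding tenascin C, was the one higher at day 1, with 2899, against 200 in sham nerve. Of 4 detected osteoclast genes, 1 was higher at day 1 (Tnfrsf11a, the receptor for RANKL) and 0 at day 5, and Acp5, the osteoclast phosphatase, was not detected on any array. The part of fibroblasts in the Ctsk values was not tested.

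The other members gave low signals on the nerve arrays. Whether a low signal meant little RNA or a weak probe was not tested. Ctsa encodes protective protein, a carboxypeptidase that stabilises other lysosomal enzymes, at chr2:164832872-164841032. Its signal was 265 in sham nerve, 316 at day 1 and 517 at day 5, then 230 in day 5 DRG, against 256 in sham DRG, and 271 in day 5 cord. Only day 5 nerve stood apart, at 1.95-fold (1.56 to 2.44) over sham nerve, short of the threshold. The other 3 probes of Ctsa lay near the floor and gave log2 differences of 0.04, -0.03 and 0.22 at day 5, beside 0.97 for the probe used, so the probes of this gene disagree.

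Ctsd encodes cathepsin D, an aspartic endopeptidase of the lysosome, at chr7:142375910-142387827. Its only probe gave 136 in sham nerve, 154 at day 1 and 225 at day 5, then 178 in day 5 DRG, against 163 in sham DRG, and 129 in day 5 cord. All arrays next to each other in order had overlapping intervals. The fold at day 5 was 1.66 (1.37 to 2.01) over sham nerve, from signals of 1.89 and 1.10 times the floor of their arrays. With background subtracted by neqc the log2 difference at day 5 was 1.35, past the threshold, against 0.73 here.

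Ctse encodes cathepsin E, an aspartic protease of endosomes in immune and epithelial cells, at chr1:131638314-131675507. Its signal was 110 in sham nerve, where it was not detected, 173 at day 1 and 157 at day 5. It was 127 in day 5 DRG, against 154 in sham DRG, and 134 in day 5 cord. The fold over sham nerve was at least 1.40 at day 1 and at least 1.27 at day 5, and the intervals of the 2 injured nerves overlapped. With neqc the log2 difference at day 1 was 1.12, past the threshold, against 0.48 here.

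Ctsl encodes cathepsin L, a cysteine endopeptidase of most cells, at chr13:64361890-64370772. Its signal was 117 in sham nerve, 124 at day 1 and 145 at day 5, then 215 in day 5 DRG, against 237 in sham DRG, and 118 in day 5 cord. It was not detected in sham nerve or in the cord. Alone among the members its 2 highest arrays were those of the DRG. At day 5 the nerve was at least 1.17-fold over sham nerve, but the bead interval of 0.95 to 1.45 includes 1. The sham nerve value rested on 19 beads, the fewest of any member on any array.

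**Figure D2:**
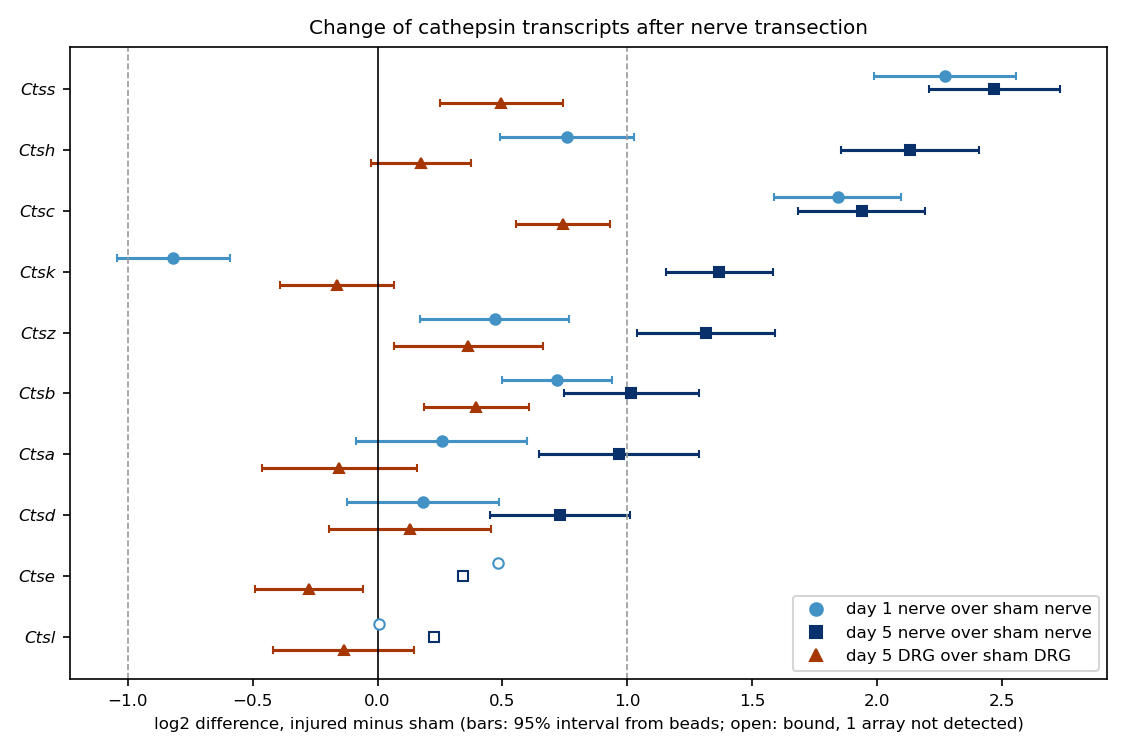
Log2 difference of each cathepsin gene (x axis) for day 1 nerve over sham nerve, day 5 nerve over sham nerve and day 5 DRG over sham DRG, with 95% intervals from the beads, dashed lines at 2-fold, and open symbols for lower bounds. The day 5 nerve points of Ctss, Ctsh, Ctsc, Ctsk, Ctsz and Ctsb lie at or past the right dashed line, Ctsk lies at -0.82 at day 1, and no DRG point passes a dashed line.

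In the DRG of the injured side, 0 of the 10 cathepsins were at least 2-fold higher or lower at day 5 than in sham DRG, beside 0.854% higher and 0.324% lower among 10191 genes. The median log2 difference of the members was 0.15, against 0.00 over all genes. Bead intervals lay above 1-fold for 4 members, which were Ctsc at 1.67-fold (1.47 to 1.91), Ctss at 1.41-fold (1.19 to 1.67), Ctsb at 1.32-fold (1.14 to 1.52) and Ctsz at 1.29-fold (1.05 to 1.58). How many of all genes had such an interval was not counted. A difference as large was found in 1.72% of genes for Ctsc, 4.31% for Ctss, 6.92% for Ctsb and 8.1% for Ctsz. With neqc Ctss was past the threshold, at a log2 difference of 1.02, against 0.50 here. Ctse was the 1 member with an interval below, with a log2 difference of -0.28 (-0.49 to -0.06), and 14.1% of genes were as low. Of 19 detected macrophage markers, 6 were at least 2-fold higher in day 5 DRG, with a median log2 difference of 0.84.

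The difference between the nerve and DRG values at day 5 was taken from the bead errors of 4 arrays and is a description of those arrays. On the log2 scale the nerve value exceeded the DRG value by 1.97 (1.61 to 2.33) for Ctss and by 1.96 (1.62 to 2.30) for Ctsh. It was 1.53 (1.22 to 1.84) for Ctsk, 1.19 (0.88 to 1.51) for Ctsc and 1.12 (0.67 to 1.56) for Ctsa. For Ctsz it was 0.95, for Ctsb 0.62, for Ctse 0.62 and for Ctsd 0.60, each with an interval above 0, but Ctse was not detected in sham nerve, so its value is a lower bound. Ctsl was not detected in sham nerve either, and its value of 0.36 is a lower bound. Its interval of -0.05 to 0.78 includes 0.

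The uninjured tissues also differed. Against sham nerve, 0 of 10 members were at least 2-fold higher in sham DRG and 4 were lower, beside 12% higher and 11.0% lower among 10397 genes. Ctsk was 2.69-fold (2.32 to 3.12) lower in sham DRG, Ctsz 2.52-fold (2.05 to 3.10), Ctsh 2.47-fold (2.04 to 2.99) and Ctsc 2.40-fold (2.02 to 2.85). Ctsl went the other way, at least 1.91-fold higher in sham DRG. With neqc the log2 difference of Ctsl was 1.88 and that of Ctss -1.41, both past the threshold, against 0.93 and -0.71 here. Ctsb was close in the 2 tissues, at 1.06-fold (0.90 to 1.24) in sham DRG over sham nerve. Macrophage markers were lower in sham DRG for 12 of 19 detected genes, and fibroblast markers for 12 of 13.

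In day 5 cord, 0 of 10 members were at least 2-fold higher than in day 5 DRG and 3 were lower, beside 6.08% higher and 7.51% lower among 10388 genes. Ctsc was 2.58-fold (2.23 to 2.98) lower in the cord, Ctsz 2.13-fold (1.77 to 2.55) and Ctsb 2.0-fold (1.70 to 2.35), the last at the threshold and lost with quantile normalization, where its log2 difference was -0.94. Ctss was 1.56-fold (1.29 to 1.88) higher in the cord, and it was the 1 member with a bead interval above 1-fold. A difference as large was found in 11.2% of genes. The second probe of Ctsz gave a log2 difference of -0.53 here, against -1.09 for the probe used, and with the mean of both probes Ctsz was no longer called. With neqc Ctss was past the threshold as higher (log2 difference 1.02), and Ctsd (-1.01) and Ctsl (-1.84) as lower. Of 8 detected microglia markers, 2 were at least 2-fold higher and 0 lower in the cord, and of 19 detected macrophage markers, 0 were higher and 7 lower, with a median log2 difference of -0.48.

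Other genes of the lysosome were compared from lists of related genes. Over all genes, 6.54% were higher and 3.59% lower at day 1 than in sham nerve, and 6.30% and 5.09% at day 5. Of 33 detected lysosomal enzymes outside the cathepsin family, 1 was at least 2-fold higher and 1 lower at day 1, with a median log2 difference of -0.11. At day 5, 10 of 33 were higher and 1 lower, with a median of 0.44. Lgmn, encoding the asparaginyl endopeptidase legumain that processes several cathepsins, gave 2279 in sham nerve, 8933 at day 1 and 12074 at day 5. The glucuronidase Gusb was 3.96-fold (3.31 to 4.74) and the mannosidase Man2b1 3.32-fold (2.88 to 3.81) over sham nerve at day 5, and Ifi30, the thiol reductase of antigen processing, 3.21-fold (2.54 to 4.05). In the DRG, 0 of 29 enzymes were called in either direction, beside 0.854% higher and 0.324% lower over all genes.

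Of 28 detected genes of the lysosomal membrane and proton pump, 3 were higher and 0 lower at day 1, and the same counts were found at day 5. The shares over all genes were 6.54% higher and 3.59% lower at day 1, and 6.30% and 5.09% at day 5. Laptm5, a lysosomal membrane protein of leukocytes, was 3.15-fold (2.60 to 3.81) over sham nerve at day 1 and 6.12-fold (5.04 to 7.43) at day 5. Among 14 detected genes of sorting and lysosomal transcription, 0 were called at day 1. At day 5 the 1 called was Igf2r, the cation-independent mannose 6-phosphate receptor, with 1252 at day 5, against 366 in sham nerve.

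Several genes from a list of protease inhibitors were also called. The list is not limited to inhibitors of the cathepsins described here, and whether the called ones act on those cathepsins was not tested. Cstb, encoding the cytosolic inhibitor cystatin B, was 2.97-fold (2.54 to 3.49) over sham nerve at day 1 and 2.77-fold (2.39 to 3.21) at day 5. Serpina3n was 5.78-fold (4.92 to 6.78) and Stfa1, a stefin A gene, at least 2.18-fold over sham nerve at day 1, which made 3 of 13 detected inhibitors higher and 0 lower. At day 5, 2 of 11 were higher, Cstb and Fetub. Over all genes, 6.54% were higher at day 1 and 6.30% at day 5. In the DRG, 2 of 12 inhibitors were at least 2-fold higher at day 5, beside 0.854% of all genes. They were Csta2 at 3.04-fold (2.48 to 3.71) and Serpinb1a, an inhibitor of granule serine proteases, at 2.62-fold (2.28 to 3.02). No cathepsin member was called there. Stefin A genes are close copies of each other, so probes may not tell them apart.

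Class II molecules depend on cathepsin S for removal of the invariant chain. Of 8 detected class II genes, 0 were higher and 2 lower at day 1, the peptide editors H2-DMa (1317 at day 1, against 3440 in sham nerve) and H2-DMb1 (1269 at day 1, against 3085 in sham nerve). At day 5, 5 of 10 were higher and 0 lower, with H2-Ab1 at 2.70-fold (2.33 to 3.14) and H2-Eb1 at 2.51-fold (2.12 to 2.97) over sham nerve. The shares over all genes were 6.54% higher and 3.59% lower at day 1, and 6.30% and 5.09% at day 5.

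**Figure D3:**
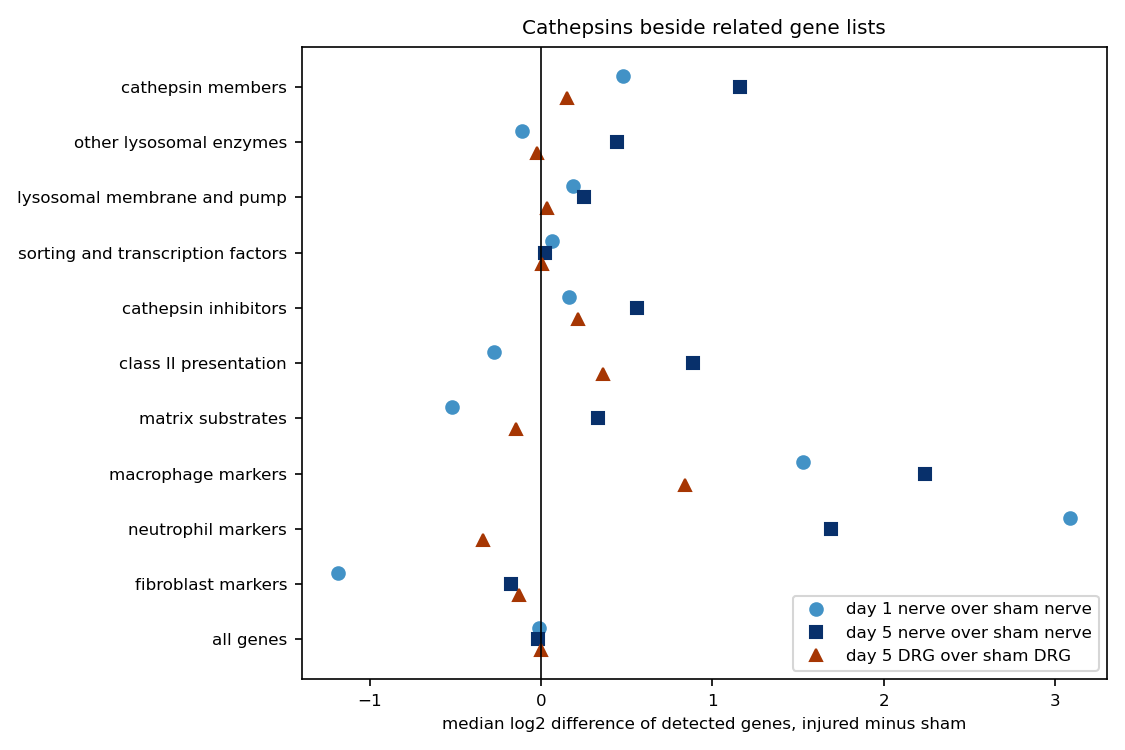
Median log2 difference (x axis) of the detected genes of the cathepsin family, of related gene lists and of all genes, for day 1 nerve over sham nerve, day 5 nerve over sham nerve and day 5 DRG over sham DRG. The cathepsin medians of 0.48, 1.16 and 0.15 lie between those of the other lysosomal enzymes and those of the macrophage markers in each comparison.

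Of 12 measured cathepsin genes outside the 10, 8 were not detected on any array, among them Ctsg, the cathepsin G of neutrophil granules. Ctsf, encoding cathepsin F, gave 646 in sham nerve, 242 at day 1 and 423 at day 5, and was 2.67-fold (2.28 to 3.13) lower at day 1 than in sham nerve. Ctsw, encoding cathepsin W of cytotoxic lymphocytes, was at least 2.28-fold higher at day 5, with 283, against 117 and no detection in sham nerve.

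The 6 arrays were also used to find the genes whose pattern was nearest to each member. The measure was the root mean square difference of log2 signal after each gene was centred on its mean over the 6 arrays, among 11703 genes detected on at least 1 array, and it is a description over 6 points that share arrays. For Ctss the nearest were Aif1 at 0.23, Vav1 at 0.23 and Laptm5 at 0.26. For Ctsc they were Fxyd5 at 0.26, Iqgap1 at 0.26 and Fcgr2b at 0.28. For Ctsk they were Eln at 0.15, Csrp2 at 0.16 and Cd276 at 0.19. Ctsh was nearest to Gngt2 at 0.17, Aebp1 at 0.18 and Ccnd1 at 0.18, and Ctsz to Plp2 at 0.14, Clec4b1 at 0.19 and Grn at 0.20. Ctsb was nearest to Plpp5 at 0.10, Zyx at 0.12 and Nme2 at 0.14. The nearest member to Ctsk was Ctsh, at 0.52, and the nearest to Ctss was also Ctsh, at 0.59. The nearest member was sought among 9 genes and the nearest gene among 11703. The smallest of so many distances is nearly always the lower, so the 2 kinds of distance cannot be compared. Flat or dim patterns give small distances to many genes, which holds for Ctsa (Nkg7 at 0.08), Ctsd (Slc15a4 at 0.04), Ctse (Srsf10 at 0.05) and Ctsl (Spink2 at 0.07).

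**Figure D4:**
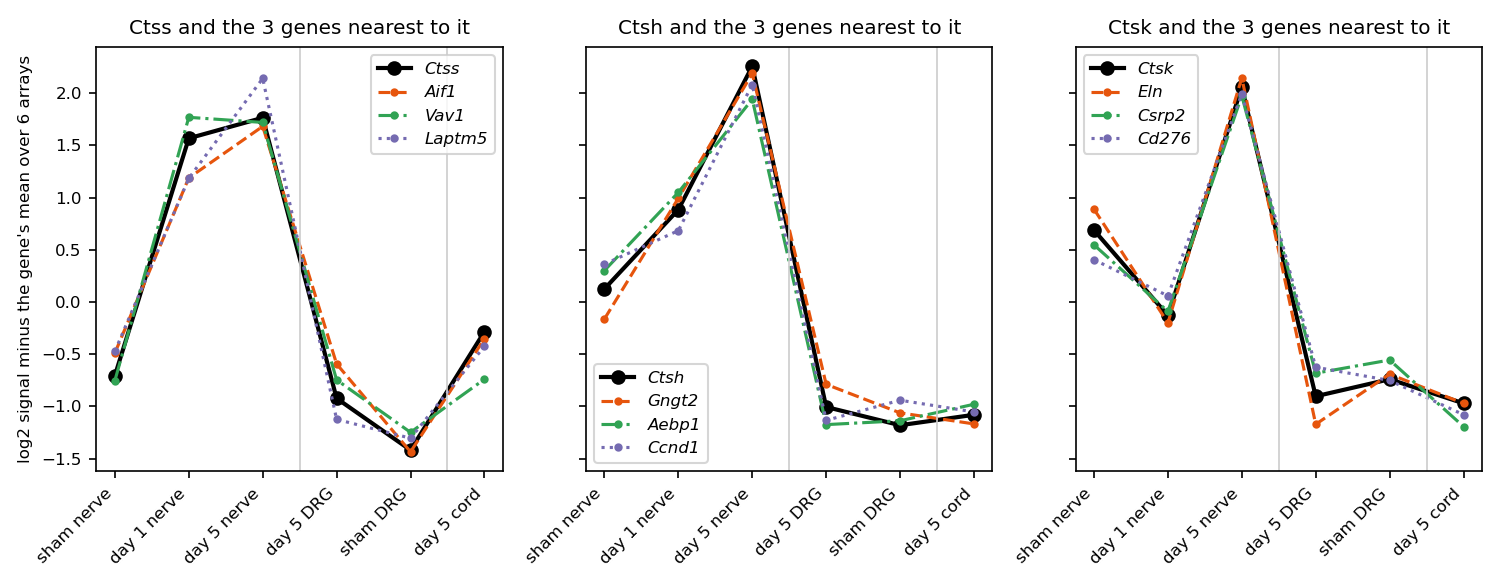
Log2 signal of Ctss, Ctsh and Ctsk and of the 3 genes nearest to each, centred on the mean of each gene over the 6 arrays. Ctss is high at day 1 and day 5, Ctsh is highest at day 5 with an intermediate day 1, and Ctsk is lower at day 1 than in sham nerve and highest at day 5.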

How the data were processed

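Each condition had 1 Illumina array. The non-normalized table that the authors deposited gives an intensity, the mean of the beads of a probe, with its standard error, the bead count and a detection p-value against negative controls. The processed intensity values that the authors deposited share 1 set of quantiles over the arrays, while the methods describe normalization to the median. The processing notes name Agilent Feature Extraction 10.5.

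Of 25697 probes, 23978 carried 1 symbol, 0 several, and 1719 were unnamed here. Intensity values were scaled to a common median (factors 0.951 to 1.07). Probes with a detection p under 0.05 (50.9 to 54.5% per array) counted as detected. The probe with the highest mean signal stood for a gene. Median bead numbers were 38 to 40. Intervals combine the bead standard errors of the arrays compared.

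Comparisons were differences between 2 arrays, with no test, since a t-test as in the methods needs replicates. The members and the 18 gene lists were chosen with earlier results of these data known. Named genes were all members, at most 4 of each list per comparison with the largest differences, and the 3 nearest genes per member. Calls were checked on simulated arrays with known folds, which were set for bright probes only and with bead error alone. That check did not cover changes of dim genes or the spread between pools. The 7 alternatives were no scaling, quantile normalization, limma's neqc (limma 3.58.1, R 4.3.3), the processed table, a detection p under 0.01, the mean of all probes and a 1.5-fold threshold. Tables were handled with pandas 2.3.3. Gene positions are from RefSeq, in which all 10 members were found.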

Additional observations from a re-analysis of the deposited data

Results flagged for a closer look

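Ctsk went opposite ways at the 2 times after transection. Its log2 difference from sham nerve was -0.82 at day 1 and 1.37 at day 5, with bead intervals on opposite sides of 0. The difference between the times was not tested, since each time was 1 array, and both values use the same sham array. At day 5 it was 4.55-fold over day 1. The fibroblast list had 7 of 13 genes lower at day 1 and 3 of 13 at day 5, against sham nerve. At day 5 against day 1 it had 7 of 13 higher and 1 lower, and the matrix list 7 of 14 higher and 0 lower. The lists are not separate, since Col1a1, Col1a2 and Dcn are in both.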

How the results depend on the processing

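Of 360 member differences under the 6 alternatives that change values, 4 had the opposite sign (Ctsa in 2, Ctse and Ctsl in 1 each), and 0 of these was called. Under the 1.5-fold threshold, 4 members were higher at day 1 (Ctsb and Ctsh were added) and 1 lower (Ctsk), beside 14.2% and 10.8% of all genes. At day 5, 8 were higher than in sham nerve, beside 13.3%, and 4 higher than at day 1, beside 8.42%. In day 5 DRG 1 was higher (Ctsc), beside 2.87%, in sham DRG over sham nerve 1 (Ctsl), beside 19.7%, and in day 5 cord over day 5 DRG 1 (Ctss), beside 12.5%. Lower at this threshold were Ctsc, Ctsh, Ctsk, Ctss and Ctsz in sham DRG over sham nerve, beside 20.7%. In day 5 cord over day 5 DRG they were Ctsb, Ctsc, Ctsl and Ctsz, beside 16.1%. With neqc, which subtracts background (log2 differences in parentheses here and below), 1 member was lower at day 1 (Ctsk, just past the threshold), 1 was higher in day 5 DRG (Ctss, 1.02), 1 in sham DRG over sham nerve (Ctsl, 1.88) and 1 in day 5 cord over day 5 DRG (Ctss, 1.02). It also called Ctse higher at day 1 (1.12), Ctsd higher at day 5 (1.35), Ctss lower in sham DRG (-1.41), and Ctsd (-1.01) and Ctsl (-1.84) lower in the cord. Over all genes neqc called 9.03% higher and 8.75% lower at day 1, 9.65% higher at day 5, and 2.08% higher in day 5 DRG. It called 15.2% higher and 19.2% lower in sham DRG over sham nerve. In day 5 cord over day 5 DRG the shares were 10.9% and 11.2%. The processed table called Ctsz higher at day 5 than at day 1 (1.02). Without scaling, 1 member was higher in sham DRG over sham nerve (Ctsl, 1.10). The day 5 call of Ctsb was lost with quantile normalization (0.91), neqc (0.92) and the processed table (0.91), and that of Ctsa was gained without scaling (1.04) and with neqc (1.24), but the mean of its probes was 0.30. The call of Ctsz in day 5 cord over day 5 DRG was lost with the mean of its probes (-0.81). The cause of these changes was not tested. Of 60 member differences, neqc moved 18 beyond the bead interval, the mean of probes 3 and the processed table moved 1.

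Without scaling, the median of all genes shifted to 0.12 at day 1, and 842 genes were higher and 264 lower, against 669 and 367 with it; with neqc they were 924 and 895. In sham DRG over sham nerve, 1507 were higher and 906 lower without scaling, against 1251 and 1141, and in day 5 cord over day 5 DRG 517 and 994, against 632 and 780. The number of arrays limits precision, and signals near the floor (Ctsd, Ctse, Ctsl) limit what their folds can show. No paired analysis was possible because each condition was 1 array.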
